A study of Mus musculus with 4 samples.

Results

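The genes described here are 10 known as markers of tissue-resident macrophages: Mrc1, Cd163, Folr2, Lyve1, Timd4, Stab1, Cbr2, Msr1, Marco and Mertk. All but Cbr2, an enzyme, encode proteins that take up or bind extracellular material. They were chosen by symbol from the 31053 genes of the deposited table, and all 10 were found. The tumours were colon polyps of female C57BL/6 mice given the carcinogen azoxymethane (12.5 mg/kg) and then 3 cycles of 5 days of dextran sulphate sodium in the drinking water, at 2.5% in the first cycles and 2% in the last. They were collected 30 days after the last cycle, digested with collagenase and DNase, and sorted on CD45, a surface protein of immune cells, and EPCAM, one of epithelial cells. The labels name 4 groups with 1 sample each: CD45+ cells from EgfrDeltaMYL mice, CD45+ cells from Egfr fl/fl mice, CD45- cells from EgfrDeltaMYL mice and CD45- cells from Egfr fl/fl mice. EgfrDeltaMYL mice carry a deletion of the growth factor receptor gene Egfr in myeloid cells, and Egfr fl/fl mice are their controls. The Cre driver and the number of mice per sample are not given in the sources used here. All groups received the same carcinogen and colitis agent, so no untreated colon is among them.

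The deposited table pools 4 libraries, told apart by a number at the end of each cell barcode, but which number belongs to which labelled sample could not be worked out from the labels or the files. Each library is therefore unassigned, no comparison of genotypes or sorts was made, and values by library are given one by one. The share of EgfrDeltaMYL cells in any type is unknown. With 1 pooled table there is no replicate, so no p-value is given.

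Macrophages of healthy tissues carry endocytic receptors that clear sugars, modified lipoproteins, haemoglobin complexes, hyaluronan and dying cells. In the gut, monocytes enter from blood throughout life and take on such receptors as they mature into macrophages that make the complement protein C1q, while a smaller set of long-lived macrophages is known for Timd4, Lyve1 and Folr2. The lineage factor PU.1 and the MAF family of factors are known regulators of macrophage genes.

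In the mouse build GRCm38/mm10 (annotation GENCODE vM21), Mrc1 lies at chr2:14229392-14332057 on the plus strand, with up to 30 exons in a transcript and the microRNA gene Mir511 within it. Stab1, with up to 69 exons, lies at chr14:31139013-31168641 on the minus strand and overlaps the protein-coding gene Nt5dc2 on the other strand. Mertk lies at chr2:128698956-128802894 on the plus strand and overlaps the antisense gene Gm14011. Folr2 lies at chr7:101839988-101857194 on the minus strand and overlaps the antisense gene Gm10602. The strand setting of the authors' counting is not stated, and whether reads of these overlapping partners entered the counts of Stab1, Mertk and Folr2 was not tested. Timd4 lies at chr11:46810800-46844332 (plus), Msr1 at chr8:39581685-39642673 (minus), Cd163 at chr6:124304656-124330527 (plus), Lyve1 at chr7:110850607-110863239 (minus), Cbr2 at chr11:120729489-120732114 (minus) and Marco at chr1:120474538-120505024 (minus). Each is annotated as protein-coding, and the kit counts molecules near the 3′ end of a gene's transcripts.

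The 250 bases before the annotated start are shown for Mrc1, Stab1, Mertk and Timd4. The first 3 of these differed by more than 7-fold between C1q-positive and C1q-low cells, and Timd4 was the one most abundant in dendritic cells. The sequences are from RefSeq on GRCm38.p6 and run 5′ to 3′ on the gene's own strand, at chr2:14229164-14229413 (plus) for Mrc1, chr14:31168642-31168891 (minus) for Stab1, chr2:128698665-128698914 (plus) for Mertk and chr11:46810549-46810798 (plus) for Timd4. Capitals mark matches to GAGGAA (a PU.1 core) or TGCTGA (a MAF half-site), searched on both strands, so that the reverse complements TTCCTC and TCAGCA count as matches too. The 2 motifs did not overlap each other in these windows. The RefSeq starts need not match the GENCODE positions given above. By those positions the Mrc1 window ends inside the gene, and the Mertk window ends short of it.
Mrc1: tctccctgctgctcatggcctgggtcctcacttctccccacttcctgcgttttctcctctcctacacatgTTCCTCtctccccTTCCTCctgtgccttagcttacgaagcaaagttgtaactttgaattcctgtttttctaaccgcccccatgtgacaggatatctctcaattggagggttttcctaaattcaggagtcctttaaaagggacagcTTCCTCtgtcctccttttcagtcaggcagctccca
Stab1: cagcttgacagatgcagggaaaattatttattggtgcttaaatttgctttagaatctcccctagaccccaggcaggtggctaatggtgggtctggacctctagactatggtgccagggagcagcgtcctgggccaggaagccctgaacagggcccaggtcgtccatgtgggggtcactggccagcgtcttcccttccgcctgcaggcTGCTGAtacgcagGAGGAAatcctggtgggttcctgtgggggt
Mertk: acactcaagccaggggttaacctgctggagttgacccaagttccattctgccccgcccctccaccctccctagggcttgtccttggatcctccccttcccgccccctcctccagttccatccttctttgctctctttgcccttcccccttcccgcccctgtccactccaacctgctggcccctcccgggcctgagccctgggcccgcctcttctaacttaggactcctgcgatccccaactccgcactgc
Timd4: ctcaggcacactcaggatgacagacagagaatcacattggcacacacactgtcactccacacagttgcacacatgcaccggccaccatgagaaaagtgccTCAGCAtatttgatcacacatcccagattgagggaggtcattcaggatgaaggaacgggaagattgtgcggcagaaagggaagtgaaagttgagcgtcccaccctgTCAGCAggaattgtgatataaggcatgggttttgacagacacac
The Mrc1 window held 3 matches to GAGGAA and 0 to TGCTGA. The Stab1 window held 1 of each, and the Timd4 window held 2 matches to TGCTGA and 0 to GAGGAA. The Mertk window held neither. Among all 32851 windows of this length in the table, GAGGAA was in 23.3% and TGCTGA in 16.1%, so a match in 1 window is common. Of the other members in the table, Cbr2 and Marco had 1 match to GAGGAA each, Folr2 had 1 match to TGCTGA before each of its 2 annotated starts, and Cd163 had neither. In all, 8 of the 10 members had a start in the table.

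The table held 129529250 UMIs (tags that mark single RNA molecules) in 18026 barcodes. After filtering, 14148 barcodes were kept, 593, 1700, 4475 and 7380 of them in libraries 1, 2, 3 and 4. The filter removed 59.0% and 56.3% of the barcodes of libraries 1 and 2, against 8.75% and 4.45% of libraries 3 and 4, and haemoglobin took 8.92% of the UMIs of kept barcodes in library 1. Barcodes were sorted into types by markers that do not include the 10 genes. C1q-positive cells (1221) carried macrophage markers and at least 20 UMIs of C1qa, C1qb and C1qc, and C1q-low myeloid cells (960) carried monocyte or macrophage markers and fewer than 5. Barcodes that met the type 2 dendritic gate were left out of the C1q-low class but not out of the C1q-positive class. With fewer than 5 C1q UMIs they were named type 2 dendritic cells, even where they carried macrophage markers. That gate's markers include Mgl2, at 308 CPM in C1q-positive and 4.96 CPM in C1q-low cells. The part of this rule in the folds was not tested. A further class, the C1q plus S100a8/9 barcodes (326), met the C1q limit and also held at least 50 UMIs per 10000 of the neutrophil genes S100a8 and S100a9. Between the C1q limits lay 128 further barcodes, and 89 C1q-positive cells had 20 to 39 C1q UMIs, against a class median of 209. Libraries 3 and 4 held nearly all of these cells, with 343 and 871 of the C1q-positive and 243 and 707 of the C1q-low ones. The other types were named in the same way, and 16 types with at least 50 cells were compared. The names stand for these gates. Of the barcode sequences, 24 occurred in more than 1 library, and 3 C1q-positive and 2 C1q-low cells carried one of them.

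A level below is the summed UMIs of a gene per 1000000 UMIs of the type (CPM), with an exact 95% Poisson interval. A fold is the ratio of 2 such levels with an exact 95% interval. These intervals cover counting error only, and not the variation between mice. A share is the percentage of cells with at least 1 UMI of the gene, after each cell was thinned to 1000 UMIs because types differ in depth (medians of 14433 UMIs in C1q-positive and 11030.5 in C1q-low cells, against 4098.5 in B cells). B cells stand for a type that should lack these genes, so their share is given as a reference. It is not a measure of free RNA in the other types. Doublets may add to it, and 1111 of the 1512 B cells were in library 3, against 243 of the 960 C1q-low cells. A gene is called higher or lower where log2((CPM + 1)/(CPM + 1)) passes 2-fold in size and the higher class has at least 10 UMIs. Levels of different genes are not compared with each other, since 3′ tags capture genes unequally.

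Of the 10 genes, 7 were called higher in C1q-positive cells than in the mean of the other gated types: Mrc1, Stab1, Msr1, Mertk, Folr2, Cbr2 and Marco. The background for this call is 5.37% of 17036 genes tested. Of these, Cbr2 was higher still in epithelial cells. The other 3 also had their highest level outside the macrophage classes, Timd4 in type 1 and migratory dendritic cells, Lyve1 in stromal cells and Cd163 in plasmacytoid dendritic cells. The name of the group, which comes from resident macrophages, thus fits 6 of the 10 by where their level was highest. For Marco, 1 of these 6, this rests on 57 kept UMIs in 10 barcodes.

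**Figure D1:**
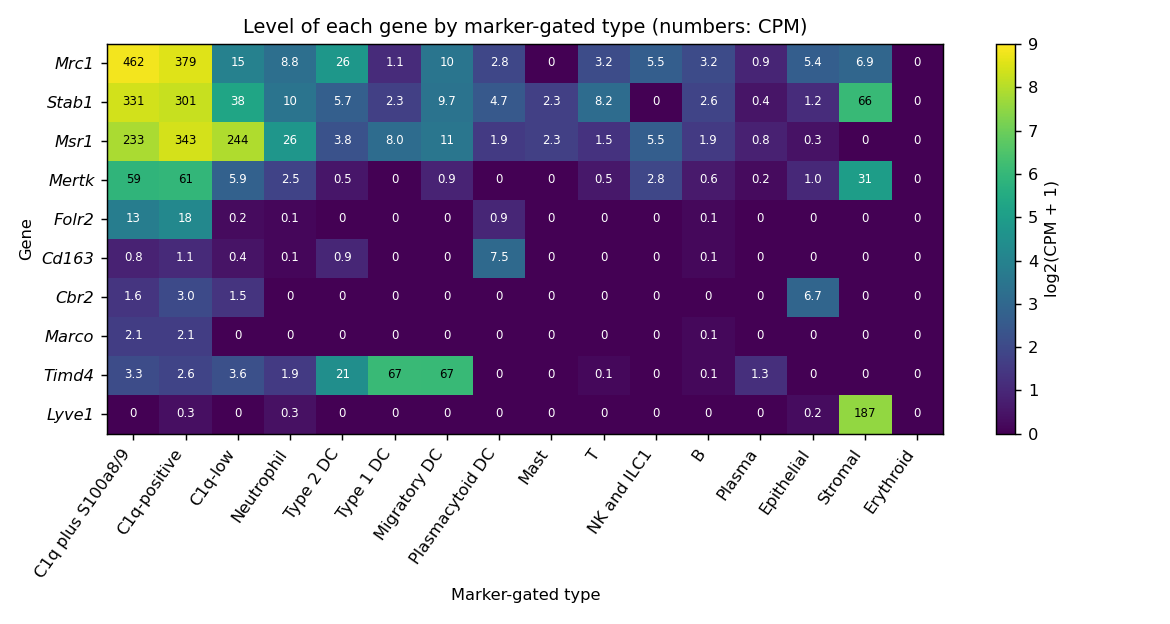
Level of each of the 10 genes (rows) in 16 marker-gated types (columns), with the CPM printed in each cell and the colour showing log2(CPM + 1). Mrc1, Stab1, Mertk and Folr2 are brightest in the C1q plus S100a8/9 and C1q-positive columns, and Msr1 in those and the C1q-low column. Timd4 is brightest in type 1 and migratory dendritic cells (DC), and Lyve1 in stromal cells.

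Mrc1 encodes the mannose receptor, which binds sugars on microbes and on glycoproteins. Its level was 379 CPM (370 to 387) in C1q-positive cells, against 14.7 CPM (12.4 to 17.2) in C1q-low cells, a fold of 25.8 (22.0 to 30.5). After thinning, 31.9% of C1q-positive cells (29.3 to 34.6) and 1.78% of C1q-low cells (1.04 to 2.83) had a Mrc1 UMI, against 0.404% of B cells. Without thinning the shares were 85.3%, 9.17% and 1.39%. In library 4 Mrc1 was at 15.4 CPM (12.7 to 18.5) in C1q-low cells, against 10.7 CPM (8.31 to 13.7) in neutrophils and 6.28 CPM (3.14 to 11.2) in B cells. In library 3 these levels were 13.4 CPM (9.54 to 18.3) in C1q-low cells, 5.78 CPM (2.99 to 10.1) in neutrophils and 2.13 CPM (1.06 to 3.804) in B cells. The part of free RNA in the C1q-low level was not tested. The next highest type outside the C1q classes was type 2 dendritic cells at 25.9 CPM (19.5 to 33.8). That gate did not exclude barcodes with macrophage markers. The monocyte and macrophage markers summed to 5084 CPM in type 2 dendritic, 6720 CPM in plasmacytoid dendritic and 22360 CPM in C1q-low cells. C1q-positive cells held 61.1% of the 12228 kept Mrc1 UMIs.

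Stab1 encodes stabilin-1, an endocytic receptor for modified lipoproteins and other ligands that is known in macrophages and in endothelium of liver and lymph vessels. It stood at 301 CPM (294 to 309) in C1q-positive cells and at 37.9 CPM (34.3 to 41.8) in C1q-low cells, a fold of 7.94 (7.18 to 8.81). Its thinned share was 23.1% in C1q-positive cells and 4.18% in C1q-low cells, against 0.404% in B cells, and without thinning 80.4%, 25.8% and 1.12%. Stromal cells were the highest type outside the myeloid classes, with 65.9 CPM (39.7 to 103) from 19 UMIs. Of these UMIs, 14 came from the 34 barcodes with blood endothelial markers (91.6 CPM), 5 from the 5 barcodes with lymphatic markers and 0 from the 23 barcodes with fibroblast markers. Endothelial markers summed to 47.4 CPM in C1q-positive cells, with Cldn5 at 0, against 4856 CPM in stromal cells.

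Folr2 encodes folate receptor beta, a binding protein for folate on macrophages. It was counted 347 times in 116 C1q-positive cells (17.6 CPM, 15.8 to 19.5) and 2 times in the 960 C1q-low cells (0.191 CPM, 0.023 to 0.688), a fold of 92.3 (25.4 to 765). Its thinned share was 2.21% in C1q-positive cells (1.46 to 3.201), 0 of 957 C1q-low cells and 0 of 1484 B cells. C1q-positive cells held 71.0% and C1q plus S100a8/9 barcodes 16.4% of its 489 kept UMIs. Among the 10 genes it had the highest fold between C1q-positive and C1q-low cells where both were above 0.

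Msr1 encodes the class A scavenger receptor for modified lipoproteins. It differed least of the 5 abundant members, with 343 CPM (335 to 352) in C1q-positive cells and 244 CPM (235 to 254) in C1q-low cells, a fold of 1.41 (1.34 to 1.47) that does not pass the 2-fold limit. Its thinned share was 23.9% in C1q-positive cells and 19.9% in C1q-low cells, with overlapping intervals (21.5 to 26.4 and 17.4 to 22.5), against 0.0674% in B cells. C1q-low cells were also called higher for Msr1 than the mean of the other types, the 1 member of the 10 for which they were (background 4.33%). Over neutrophils the fold of C1q-low cells was 9.52 (8.31 to 10.9), from 244 CPM against 25.6 CPM. Of the 6 members tested in C1q-low cells over neutrophils 3 were called higher, Stab1 (3.75, 2.98 to 4.77), Msr1 and Cbr2 (16 against 0 UMIs), where 46.5% of genes were. None was called lower (background 9.03%).

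Mertk encodes a receptor tyrosine kinase that engages dying cells through the bridging proteins Gas6 and protein S. Its level was 60.5 CPM (57.2 to 64.1) in C1q-positive cells and 5.91 CPM (4.53 to 7.57) in C1q-low cells, a fold of 10.2 (7.94 to 13.5). The thinned share was 6.39% in C1q-positive cells and 0.418% in C1q-low cells, against 0.0674% in B cells. The C1q-low interval (0.114 to 1.07) overlaps that of B cells (0.00171 to 0.375). Outside the C1q classes stromal cells were highest, with 31.2 CPM from 9 UMIs, all in barcodes with blood endothelial markers.

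Marco, a second class A scavenger receptor that binds bacteria and particles, was rare. It had 42 UMIs in 7 of the 1221 C1q-positive cells (2.13 CPM, 1.54 to 2.88) and 0 in C1q-low cells, at least 7.45-fold higher when 3 counts over the class are allowed for the C1q-low cells. Of the 42 UMIs 25 stood in 1 barcode. Without the barcode richest in Marco, an alternative chosen after seeing the data, Marco was no longer called, so its call rests on that barcode. It was not called without library 3 either, which held 33 of the 42 UMIs.

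Cbr2, Cd163 and Lyve1 were sparse in C1q-positive cells. Cbr2 encodes carbonyl reductase, a mitochondrial enzyme and not a receptor, which is used as a marker of resident macrophages in the mouse. It had 3.04 CPM (2.32 to 3.92) in C1q-positive cells and 1.52 CPM (0.872 to 2.48) in C1q-low cells, a fold of 2.00 (1.13 to 3.71) that stayed under the limit once 1 CPM was added to each level. Cd163, the receptor for haptoglobin-bound haemoglobin, had 22 UMIs in 9 C1q-positive cells (1.12 CPM) and 4 UMIs in C1q-low cells (0.381 CPM), a fold of 2.93 (0.994 to 11.7), and was called higher when library 4 was left out. Only 44 Cd163 UMIs were kept in all, and 8 of them, in 7 of 115 plasmacytoid dendritic cells, gave that type 7.50 CPM (3.24 to 14.8). Lyve1, a receptor for hyaluronan, had 6 UMIs in 5 C1q-positive cells (0.304 CPM) and 0 in C1q-low cells, too few to be tested.

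Set side by side, C1q-positive over C1q-low cells, 5 of the 10 genes were called higher: Mrc1, Stab1, Folr2, Mertk and Marco. None was called lower. In the same comparison 19.8% of the 12376 genes tested were called higher and 6.13% lower. Lyve1 did not reach the count minimum, which left 9 members tested. The median log2 fold of the 9 was 1.65, against 0.40 over all genes tested, so the typical gene also leaned towards C1q-positive cells. Timd4 had 2.59 CPM (1.93 to 3.40) in C1q-positive cells and 3.62 CPM (2.56 to 4.97) in C1q-low cells, with overlapping intervals. Its log2 fold was -0.37, but 2.09 with Leiden clusters in place of the gates and 1.28 without library 4, so its direction depends on how the classes are drawn and on that library.

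The difference between C1q-positive and C1q-low cells was seen within library 3 and within library 4. Mrc1 was at 388 CPM in C1q-positive and 13.4 CPM in C1q-low cells of library 3, and at 375 CPM in C1q-positive and 15.4 CPM in C1q-low cells of library 4. Stab1 was at 382 and 45.4 CPM in these classes of library 3, and at 264 and 35.5 CPM in those of library 4. For Mertk the levels were 72.5 and 8.95 CPM in library 3 and 55.01 and 4.83 CPM in library 4. Msr1 was at 321 CPM in C1q-positive and 174 CPM in C1q-low cells of library 3, and at 354 and 270 CPM in those of library 4. Mrc1 in C1q-positive cells had overlapping intervals in these libraries. Stab1, Mertk and Msr1 in C1q-positive cells did not, with Stab1 and Mertk higher in library 3 and Msr1 higher in library 4. Folr2 did not either, at 30.7 CPM (26.5 to 35.4) in library 3 and 11.5 CPM (9.75 to 13.5) in library 4. Its UMIs were in 56 of 343 and 59 of 871 cells. As the libraries are unassigned, these gaps cannot be tied to a genotype or a sort.

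**Figure D2:**
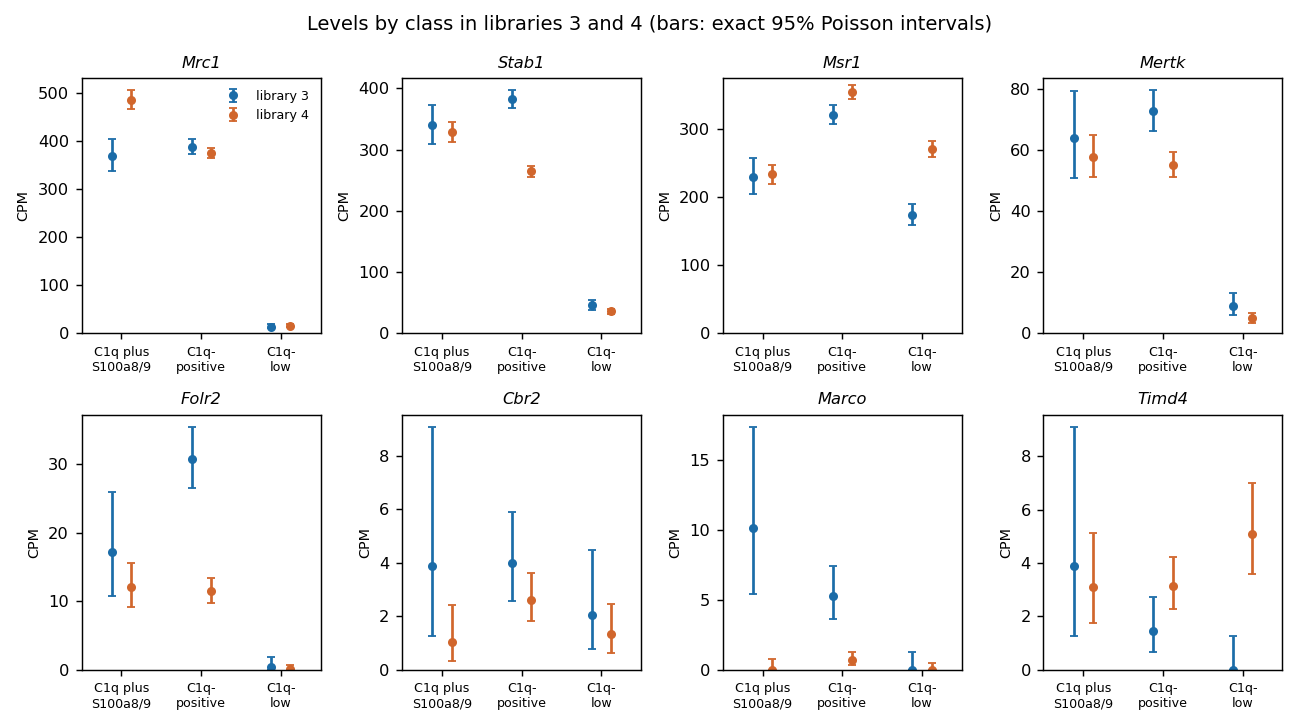
CPM of 8 genes in C1q plus S100a8/9 barcodes, C1q-positive cells and C1q-low cells of library 3 (blue) and library 4 (orange), with exact 95% Poisson intervals as bars. In both libraries Mrc1, Stab1, Mertk and Folr2 are near the bottom of the axis in C1q-low cells, Msr1 is not, and Folr2 in C1q-positive cells is 30.7 CPM in library 3 and 11.5 CPM in library 4.

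The macrophage barcodes were also graded by their C1q UMIs per 10000, without the C1q limits. Barcodes with fewer than 5 C1q UMIs that met the type 2 dendritic gate were not among them. Mrc1 stood at 12.4, 22.3, 54.2, 129, 236, 328, 443 and 624 CPM from the lowest grade to the highest. Stab1 ran through 36.9, 33.7, 62.1, 128, 176, 225, 342 and 590 CPM over the same grades. Both were higher at each step over the 5 upper grades. Mertk was at 49.6 CPM in the grade of 20 to 50 and between 49.3 and 76.9 CPM in the grades above it. Folr2 had 2 UMIs in the lowest grade and 0 in the next pair, then 4.84, 6.74, 12.1, 20.5 and 39.2 CPM. Msr1 stayed between 239 and 364 CPM in every grade.

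**Figure D3:**
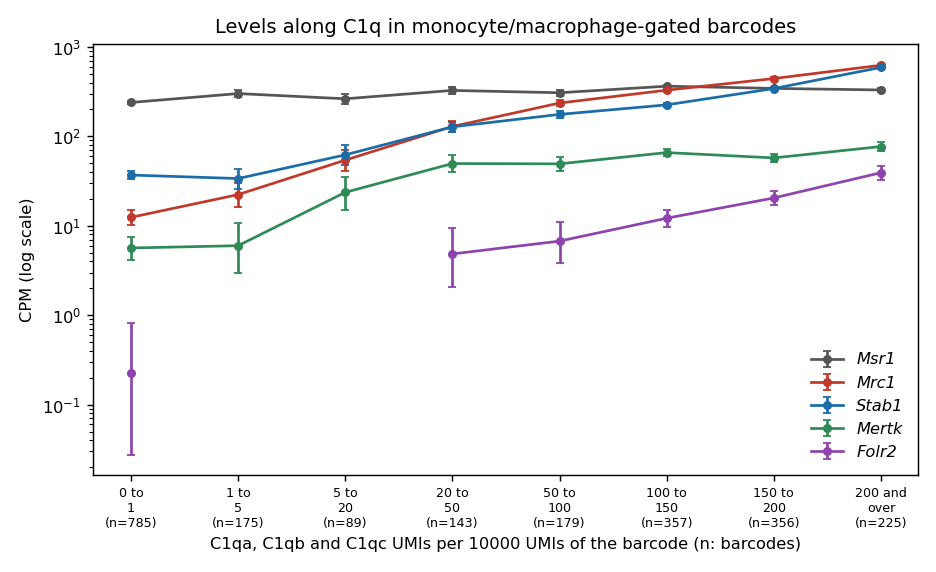
CPM on a log axis of 5 genes in monocyte and macrophage barcodes, in 8 grades of C1q UMIs per 10000 from low to high, with exact 95% Poisson intervals and the number of barcodes under each grade. Mrc1 and Stab1 reach 624 and 590 CPM in the top grade, Msr1 stays between 239 and 364 CPM, and the Folr2 line is broken where it had 0 UMIs.

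Single C1q-positive cells usually carried several of the 5 abundant members (Mrc1, Stab1, Msr1, Mertk and Folr2). Without thinning, 35.8% of the C1q-positive cells had UMIs of 4 of them, 34.6% of 3 and 1.47% of none. Of the C1q-low cells 51.5% had UMIs of 1 and 21.9% of none. After thinning, a Stab1 UMI was found in 35.1% of C1q-positive cells with Mrc1 (30.4 to 40.1) and in 17.4% of those without (14.9 to 20.2). For Folr2 the shares were 4.36% with Mrc1 (2.56 to 6.89) and 1.20% without (0.579 to 2.20). Msr1 was found in 26.4% of cells with Mrc1 (22.1 to 31.1) and 22.7% of those without (19.9 to 25.7), and in 22.0% of cells with Stab1 and 24.5% of those without. Stab1 and Folr2 were thus found more often in cells with Mrc1 than in cells without, while the Msr1 intervals overlapped.

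Among C1q-positive cells, the 116 with a Folr2 UMI were set against the 1105 without one, at median depths of 15114.5 and 14411 UMIs. This split is by a measured gene, so its values describe cells and are not a test. Mrc1 was at 769 CPM in cells with Folr2 and 336 CPM in those without, a fold of 2.29 (2.16 to 2.42). Stab1 was at 666 and 261 CPM, a fold of 2.55 (2.40 to 2.71). The sparse members moved furthest. Cbr2 had 21.9 CPM with Folr2 and 0.957 CPM without, a fold of 22.9 (12.8 to 42.8). Cd163 had 16 UMIs in cells with Folr2 and 6 in the far larger set without (8.16 and 0.338 CPM, fold 24.2, 8.98 to 75.4). Of the 16, 7 stood in 1 barcode of library 3 and 6 in 1 barcode of library 4, so this fold rests largely on a pair of barcodes. Lyve1 had 5 UMIs with Folr2 and 1 without, and Timd4 15 and 36 UMIs, a fold of 3.77 (1.92 to 7.07). Of the 42 Marco UMIs 0 were in cells with Folr2. Msr1 was 1.65-fold (1.54 to 1.76) and Mertk 1.26-fold (1.05 to 1.50) as high with Folr2 as without.

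Ccr2, the chemokine receptor of incoming monocytes, went the other way, at 53.6 CPM in cells with Folr2 and 158 CPM in those without, a fold of 0.339 (0.276 to 0.412). Ly6c2, a surface marker of blood monocytes, had 4 UMIs with Folr2 and 232 without. Cd4, which long-lived gut macrophages are known to carry, was at 70.9 and 37.9 CPM, a fold of 1.87 (1.55 to 2.25). The C1q genes themselves were between 1.21-fold and 1.32-fold as high with Folr2. Within library 3 the fold with Folr2 over without was 2.24 for Mrc1, 2.61 for Stab1, 12.95 for Cbr2 and 0.321 for Ccr2, and within library 4 it was 2.41, 2.16, 33.8 and 0.386. Mertk differed between them, at 1.39 (1.10 to 1.74) in library 3 and 0.942 (0.688 to 1.26) in library 4, and all 5 Lyve1 UMIs came from library 3.

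Cells with at least 4 Folr2 UMIs had more Mrc1, Stab1 and Cbr2 than cells with fewer. In cells with 0, 1, 2 to 3 and at least 4 Folr2 UMIs (1105, 50, 34 and 32 cells), Mrc1 was at 336, 609, 665 and 1082 CPM. Stab1 was at 261, 500.1, 533 and 1015 CPM, and Cbr2 at 0.957, 4.95, 8.97 and 57.1 CPM. Ccr2 was at 158, 74.3, 39.4 and 38.6 CPM. For each of these genes the intervals of the grades of 1 and of 2 to 3 Folr2 UMIs overlapped, and for Cbr2 also those of 0 and 1. Msr1 was at 322 CPM without Folr2 and between 506 and 579 CPM in the other grades, and the Mertk intervals of the grades with Folr2 all overlapped. Median depths in the 4 grades were 14411, 16288, 15174.5 and 13171.5 UMIs.

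**Figure D4:**
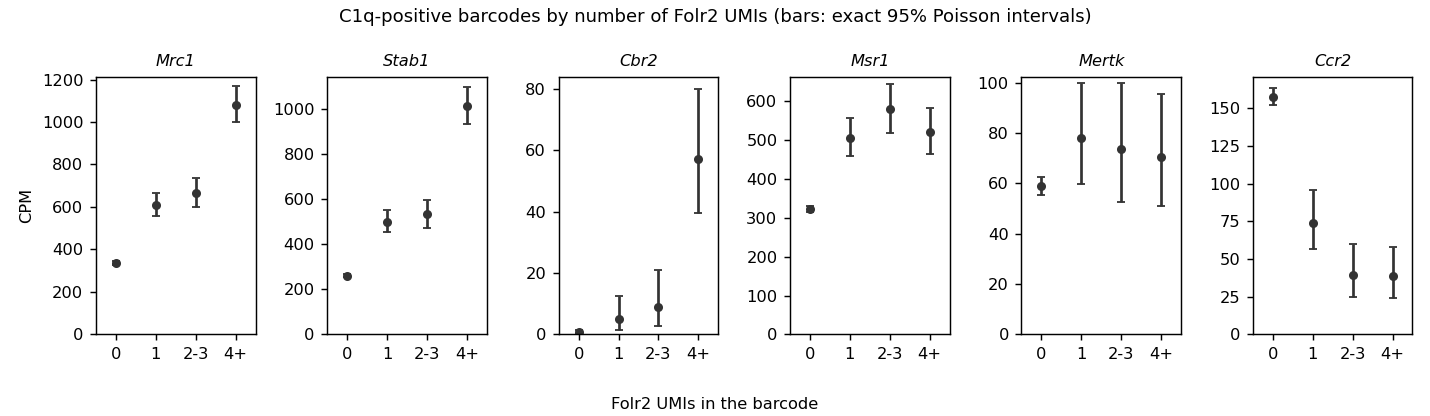
CPM of 5 members and of Ccr2 in C1q-positive cells with 0, 1, 2 to 3 and 4 or more Folr2 UMIs, with exact 95% Poisson intervals. Mrc1, Stab1 and Cbr2 are highest in the last grade (1082, 1015 and 57.1 CPM), and Ccr2 is highest in cells without Folr2 (158 CPM).

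The C1q plus S100a8/9 barcodes met the same C1q limit as C1q-positive cells, so macrophage RNA in them follows from the gate. None of the 9 members tested was called higher than in C1q-positive cells (background 3.39%) and none lower (background 1.12%). At backgrounds this low, no call would be usual for any 9 genes, so this says little about the members. Mrc1 was at 462 CPM (445 to 479) in C1q plus S100a8/9 barcodes and 379 CPM in C1q-positive cells, a fold of 1.22 (1.17 to 1.27). The Stab1 fold was 1.10 (1.05 to 1.16), from 331 against 301 CPM, and the Mertk fold 0.973 (0.862 to 1.10). Msr1 was lower, at 233 CPM (221 to 245) in C1q plus S100a8/9 barcodes against 343 CPM in C1q-positive cells, a fold of 0.678 (0.640 to 0.718). Folr2 had 13.1 against 17.6 CPM, a fold of 0.744 (0.576 to 0.951). Its log2 fold, -0.40, turned to 0.06 without library 3 and to 0.13 with the highest doublet scores removed. For Mrc1, library 4 carried the difference, with 486 CPM in C1q plus S100a8/9 barcodes and 375 CPM in C1q-positive cells. In library 3 these levels were 370 and 388 CPM, with overlapping intervals.

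S100a8 and S100a9 took 3.26% of the UMIs of the C1q plus S100a8/9 barcodes, 0.0151% of those of C1q-positive cells and 14.97% of those of neutrophils. The 8 neutrophil markers summed to 36769 CPM in C1q plus S100a8/9 barcodes, with none at 0, and to 296 CPM in C1q-positive cells. The C1q genes summed to 12295 CPM in C1q plus S100a8/9 barcodes and 14346 CPM in C1q-positive cells, and median depth was 17371.5 and 14433 UMIs. The part of neutrophil RNA or of doublets in these levels was not tested. Along grades of S100a8 and S100a9 UMIs per 10000 (0 to 2, 2 to 10, 10 to 50, 50 to 200, 200 to 600 and over 600), Msr1 had 349, 315, 245, 277, 218 and 153 CPM. Mrc1 showed no such course, with 364, 498, 405, 427, 513 and 378 CPM.

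Timd4 encodes a receptor for phosphatidylserine, the lipid that dying cells expose, and is known in long-lived macrophages of the gut. In these tumours it was the 1 member of the 10 called higher in dendritic than in C1q-positive cells. Type 1 dendritic cells had 67.0 CPM (57.5 to 77.7) against 2.59 CPM in C1q-positive cells, a fold of 25.9 (18.9 to 36.1; background 7.59% of genes called higher). Migratory dendritic cells had 66.7 CPM (58.4 to 75.8), a fold of 25.8 (18.98 to 35.6; background 10.3%), and type 2 dendritic cells 20.8 CPM (15.1 to 27.9), a fold of 8.03 (5.24 to 12.3; background 6.18%). Over the mean of the other gated types, Timd4 was likewise the 1 member called higher in type 1 (background 4.15%) and in migratory dendritic cells (background 5.69%). Plasmacytoid dendritic cells had 0 Timd4 UMIs, which allows up to 2.81 CPM, so a difference from C1q-positive cells was not detectable at this depth. None of the 9 members tested was called higher in plasmacytoid dendritic than in C1q-positive cells (background 13.5%).

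Most of the other members went the opposite way. In type 1 and in migratory dendritic cells 8 members were called lower than in C1q-positive cells (background 17.5% and 23.0%), in type 2 dendritic cells 7 (background 16.5%) and in plasmacytoid dendritic cells 8 (background 19.2%). The 8 in plasmacytoid dendritic cells include Timd4, for which 0 UMIs were set against a level below what 3 counts allow, and so 7 other members. Cd163 was an exception there, with 7.50 CPM from 8 UMIs against 1.12 CPM in C1q-positive cells, a fold of 6.72 (2.59 to 15.7). Its UMIs were under the minimum of 10, so it was not called. Mrc1 had 1.14 CPM in type 1, 10.3 CPM in migratory, 25.9 CPM in type 2 and 2.81 CPM in plasmacytoid dendritic cells, all against 379 CPM in C1q-positive cells. Mertk had 0 UMIs in type 1 and plasmacytoid, 1 in type 2 and 3 in migratory dendritic cells. Several of these calls set 0 UMIs against a level close to what 3 counts allow, as for Cd163 in type 1 dendritic cells (up to 1.14 CPM, against 1.12 CPM in C1q-positive cells), where no difference was detectable at this depth. All dendritic comparisons share the same C1q-positive cells.

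Timd4 was concentrated in few barcodes. Migratory dendritic cells had 234 UMIs in 31 of 349 barcodes, with 202 of them in 12 barcodes. Type 1 dendritic cells had 176 UMIs in 31 of 123 barcodes, with 136 in 10. C1q-positive cells had 51 UMIs in 23 of 1221 barcodes, 1 of which had 5 or more. In C1q-low cells 38 UMIs stood in 5 barcodes, and all 38 were in the 296 barcodes without Msr1. In plasma cells 19 UMIs stood in 1 barcode. After thinning, a Timd4 UMI was found in 4.07% of type 1 (1.33 to 9.23), 2.69% of migratory (1.24 to 5.04) and 2.78% of type 2 dendritic cells (0.762 to 6.96), against 0.246% of C1q-positive cells (0.0507 to 0.716) and 0 of 1484 B cells, which allows up to 0.198%.

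**Figure D5:**
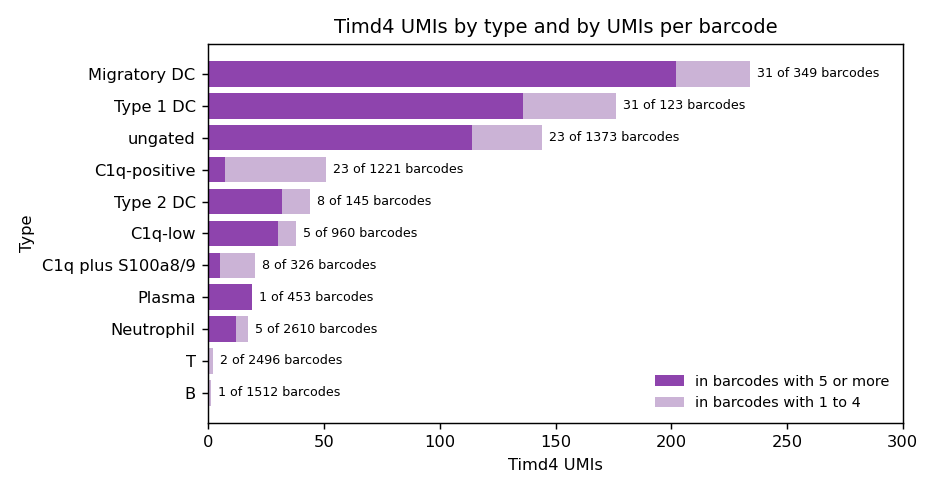
Timd4 UMIs (bar length) by gated type, split into UMIs in barcodes with 5 or more (dark) and with 1 to 4 (light), with the number of barcodes that had any. Mixed barcodes, with 107 UMIs in 8 barcodes, are left out; 202 of 234 UMIs in migratory and 136 of 176 in type 1 dendritic cells (DC) stood in barcodes with 5 or more, against 7 of 51 in C1q-positive cells.

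By library, type 1 dendritic cells had 74.9 CPM of Timd4 in library 3 and 62.5 CPM in library 4, and type 2 dendritic cells 24.7 and 18.9 CPM. Migratory dendritic cells differed, with 25.4 CPM (17.3 to 35.8) in library 3, from 4 of 117 barcodes, and 91.0 CPM (78.8 to 104) in library 4, from 27 of 226. Type 1 dendritic cells with Timd4 (31) had 84.1 CPM of Ccr7, the receptor that guides dendritic cells to lymph nodes, against 31.6 CPM in those without (92), a fold of 2.66 (1.82 to 3.88). Xcr1, a chemokine receptor that marks type 1 dendritic cells, was at 257 CPM with Timd4 and 374 CPM without. Their median depths were 22101 and 22396 UMIs.

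Lyve1 was found outside the myeloid cells. Stromal cells had 54 UMIs in 5 of 62 barcodes (187 CPM, 141 to 244), and Lyve1 was the 1 member called higher there than in the mean of the other types (background 12.6%). Of these, 53 were in 4 of the 5 barcodes that carried lymphatic endothelial markers (2581 CPM), 1 in the 34 other endothelial barcodes and 0 in the 23 fibroblast barcodes. Lyve1 is known as a marker of lymphatic vessels. Libraries 1 and 2 held all stromal barcodes, and library 2 held 53 of the 54 UMIs. A further barcode of library 1 with stromal markers held 39 Lyve1 UMIs but was removed by a doublet call, which makes 39 of the 130 deposited UMIs. Lymphatic markers summed to 1.42 CPM in C1q-positive cells, with Mmrn1 and Ccl21a at 0.

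Cbr2 was likewise called higher in epithelial cells than in the mean of the other types, the 1 member that was (background 26.6%). It had 115 UMIs in 85 of 1632 epithelial barcodes (6.68 CPM, 5.52 to 8.02). By library the epithelial level was 7.79 CPM in library 1 and 5.39 CPM in library 2, and 32.0 CPM in library 4 from 12 UMIs. In dendritic, B, T and plasma cells and in neutrophils it had 0 UMIs.

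The regulators and pathways around these genes were taken from lists and compared between C1q-positive and C1q-low cells, against the same 19.8% higher and 6.13% lower. Of 10 macrophage regulators 2 were higher and 1 lower. Maf, one of the factors whose half-site was searched above, was at 211 CPM in C1q-positive and 24.8 CPM in C1q-low cells, a fold of 8.52 (7.52 to 9.70). Spi1, which encodes PU.1, was at 420.1 and 498 CPM, a fold of 0.843 (0.814 to 0.873). The regulator Id3 was lower, at 68.2 and 175 CPM (0.390, 0.363 to 0.418). Spic, known from macrophages that recycle red cells, had a fold of 1.49 (1.19 to 1.87).

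Of 12 monocyte genes 0 were higher and 11 lower in C1q-positive cells, but 7 of the 12 had served as gate markers. Without them 4 of 5 were lower. Hp, which encodes haptoglobin, the partner of the Cd163 ligand, was at 21.9 CPM in C1q-positive and 837 CPM in C1q-low cells. Vcan and S100a4 were also lower, with folds of 0.0366 and 0.0734.

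Of 12 other scavenger and uptake receptors tested 5 were higher and 2 lower, or 4 and 2 of 9 without gate markers. Cd36, a receptor for oxidised lipoproteins, had a fold of 2.49 (2.03 to 3.07), the lysosomal receptor Scarb2 2.26 (2.07 to 2.47), Cxcl16, a scavenger receptor and chemokine, 2.01 (1.94 to 2.08) and Colec12, from 2.48 and 0.381 CPM, 6.52 (2.39 to 24.9). Olr1, another receptor for oxidised lipoproteins, was lower, at 24.7 CPM in C1q-positive and 152 CPM in C1q-low cells. Ly75, a receptor of dendritic cells, was also lower, with 0.456 and 2.48 CPM.

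Of 15 genes of apoptotic cell uptake 4 were higher and 1 lower. Gas6, the bridging protein for Mertk, was at 50.6 CPM in C1q-positive and 0.667 CPM in C1q-low cells, a fold of 75.8 (36.6 to 189). Axl, a kinase related to Mertk, was at 259 and 25.4 CPM (10.2, 9.0 to 11.6). The bridging protein Mfge8 had a fold of 15.4 (11.8 to 20.6) and the integrin chain Itgb5 one of 4.37 (3.995 to 4.796). Anxa1 was lower, with a fold of 0.340 (0.320 to 0.363). The other ligand of Mertk, protein S (Pros1), was at 25.1 and 16.1 CPM, a fold of 1.56 (1.31 to 1.87). Gas6 was higher still outside the myeloid cells, with 232 CPM in stromal and 86.0 CPM in epithelial cells.

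Of 13 genes of haem, iron and folate handling 5 were higher and 1 lower. The iron exporter Slc40a1 was at 44.3 CPM in C1q-positive and 0.667 CPM in C1q-low cells, a fold of 66.4 (32.1 to 166). Slc46a1, which carries folate and haem, had 5.17 and 0.191 CPM (27.1, 7.32 to 227) and the folate carrier Slc19a1 4.72 and 0.953 CPM (4.95, 2.57 to 10.7). The biliverdin reductase Blvrb had a fold of 3.79 (3.52 to 4.09). Hmox1, which breaks haem down, was lower, at 254 and 508.5 CPM (0.499, 0.480 to 0.519).

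Of 5 hyaluronan genes 1 was higher and 2 lower. Hmmr, a hyaluronan-binding protein better known from dividing cells, was higher, at 17.6 CPM in C1q-positive and 0.0953 CPM in C1q-low cells. The hyaluronan receptor Cd44 was lower, at 213 and 855 CPM (0.249, 0.240 to 0.259), and the synthase Has1 had 0 and 43 UMIs. Of 10 growth and inducing cytokine genes 3 were higher and 2 lower. They were the receptors Tgfbr1 (5.41, 4.87 to 6.04) and Tgfbr2 (5.36, 4.66 to 6.19) and the gate marker Csf1r, all higher, and Csf2rb (0.428) and Tgfb1 (0.465), both lower. Of 6 genes that respond to tissue dissociation 3 were higher, Fosb (3.02), Hspa1a (2.28) and Hspa1b (2.21), and 0 lower. The part of dissociation in the members' levels was not tested.

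For members with at least 100 UMIs in gated cells, the 3 genes with the most similar log2(CPM + 1) over the 16 types were found among 12020 genes, by Pearson's r. The 16 types share libraries and differ in depth and in number of cells, so r is a description. For Mrc1 they were Abca9 (0.933), Nxpe5 (0.920) and AU022793 (0.910). For Stab1 they included Vcam1 (0.970) and Mmp13 (0.939), and for Folr2 they were Gm14221 (0.994), Fcrls (0.990) and C6 (0.987). Msr1 was most like Ms4a4a (0.963), Tfec (0.963) and Klra2 (0.954), and Mertk most like Itgb5 (0.945), Lpl (0.942) and Olfml3 (0.9404). Cbr2 was most like Sectm1a (0.958), Upp2 (0.936) and Tnfsf13os (0.930). Timd4 was most like Nectin1 (0.916), Htr7 (0.890) and Ccl22 (0.888), the last a gate marker of migratory dendritic cells. Between members, Stab1 and Mertk had the highest r (0.880), and Mertk and Timd4 one of -0.05.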

How the data were processed

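The authors deposited raw UMI counts per gene and barcode, made with Cell Ranger 3.0.2 against mm10 per the submitters' processing notes. Which gene annotation was counted against is not stated in labels, notes or headers. The kit was 10x Chromium 3′ V3, per the labels' protocols, which describe suspensions both as loaded into 1 well and as given 1 index per sample.

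Barcodes were kept with at least 200 genes, 500 UMIs and at most 20% mitochondrial UMIs. Scrublet in scanpy 1.11.5 (expected rate 6%, per library) called 50 of 14198 (0.352%), under 0.5%, so that doublet calling cannot be said to have worked; the called barcodes were removed. Types were gated on 18 marker lists, with limits set from the markers after the data were opened. Raw counts were summed per type and scaled to CPM in Python 3.11.15 (numpy 2.4.6, scipy 1.17.1, pandas 2.3.3). With 1 pooled table and no map to samples, no test was run; the fold and interval code was tested on simulated data. The floor for 0 UMIs is 3 counts. The cells of a type hold between 288493 and 19719492 UMIs, which sets the precision of a level.

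The members, lists and alternatives were chosen with earlier results of these data known. Named genes are the 10 members, the 3 genes most like each, and list genes past 2-fold; a few genes that this rule names are not reported here. Alternatives varied the cell filter, gate limits, Leiden clusters, doublets, depth, pseudocount (0.1 or 10 CPM), count minimum, shared barcodes and libraries. Skipping doublet removal, dropping each class's richest barcode and keeping C1q plus S100a8/9 barcodes out of the mean were added after seeing the data.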

Additional observations from a re-analysis of the deposited data

Results flagged for a closer look

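Timd4 was also found in barcodes that met no gate and enter no comparison. The 1373 ungated barcodes had 32.4 CPM of Timd4 (27.3 to 38.2), against 0.144 CPM in B cells, the type that should lack it. The 144 UMIs stood in 23 barcodes, 5 of library 3 and 18 of library 4. Those 23 had a median of 11495 UMIs, against 1256.5 in the other ungated barcodes. The class II invariant chain gene Cd74 was at 18506 CPM in ungated barcodes with Timd4 and 10329 CPM in those without, Ccr7 at 309 and 128 CPM, and the migratory dendritic markers summed to 743 and 303 CPM. The type 1 dendritic markers summed to 257 and 93.0 CPM, with Xcr1 at 18.4 and 2.40 CPM, and the type 2 dendritic markers to 551 and 391.6 CPM. The monocyte and macrophage markers summed to 3066 and 4844 CPM and the neutrophil markers to 5393 and 11258 CPM. Fscn1, a defining marker of migratory dendritic cells, had 1 UMI in the 23 barcodes. Which cells these are was not tested.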

How the results depend on the processing

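Of 85 counts of members under alternatives 83 stayed within 1.5 times the value reported. Both counts of lower members were 0 as reported, and each 0 that stayed 0 is among the 83, so this number says little about them. With Leiden clusters in place of gates, 8 members were higher in C1q-positive than in C1q-low cells in place of 5, with Cd163, Timd4 and Cbr2 added. Thinned to 1000 UMIs, 1 member (Folr2) was lower in C1q plus S100a8/9 barcodes than in C1q-positive cells, in place of 0. The cause was not tested for either. With each library left out in turn, the count higher in C1q-positive than in C1q-low cells lay between 4 and 6. It lost Marco without library 3 and gained Cd163 without library 4. The count over the mean of the other types lay between 6 and 8, and both counts of lower members stayed at 0. The log2 fold of Lyve1 in C1q-positive cells over the other types, -3.37 as reported, became 0.32 without library 1, 0.34 without library 2, 0.85 in library 3 alone and 0.065 in library 4 alone, where stromal cells fell below 50 or were absent, and -3.75 without library 3. That of Cbr2, 1.29 as reported, was -0.10 in library 4 alone. Of 610 single folds under alternatives 451 held, 154 moved and 5 reversed. A fold counts as reversed only where the reported one was at least 2-fold in size and changed direction. Changes of direction in smaller folds, such as those of Timd4 and Folr2 given above, are not among the 5. No paired analysis was possible because each group has 1 sample and no barcode can be assigned to one. Genes under about 60 UMIs (Cd163, Lyve1, Marco and Timd4 in C1q-positive cells) are limited by depth and rest on few barcodes.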

Other observations

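Arg1 was set against Msr1 and Folr2 in the myeloid classes. The 1038 C1q-positive cells with a Msr1 UMI had 252 CPM of Arg1, an arginine-degrading enzyme, against 81.5 CPM in those without, a fold of 3.09 (2.63 to 3.67). Median depths of these cells were 15396 and 9267 UMIs. In C1q-low cells Arg1 was at 812 CPM with Msr1 and 403 CPM without, a fold of 2.02, and the class II gene H2-Ab1 at 1525 and 2874 CPM, a fold of 0.531 (0.516 to 0.546). With Folr2, Arg1 was at 176 CPM, against 243 CPM without, a fold of 0.726 (0.649 to 0.811), but 0.534 in library 3 and 0.966 in library 4.

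Csf1, the growth factor of macrophages, was highest in neutrophils at 422 CPM and in mast cells at 259 CPM. C1q plus S100a8/9 barcodes had 149 CPM, against 21.9 CPM in C1q-positive cells. The part of neutrophil RNA in that level was not tested.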
